A study of Sus scrofa with 32 samples.

Results

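The TGF-beta superfamily genes measured here in pig testis were all genes whose pig symbol begins with TGFB, INHA, INHB, BMP, GDF, SMAD, ACVR, FST, LTBP or SMURF, together with AMHR2, NOG and GREM1, that had at least 10 counts in total. The gene identifiers of the count tables were paired with symbols in 11804 of 25322 cases. Of these, 51 symbols matched the rule and 49 genes had enough counts. The other 2, BMP15 and GDF7, had 0 reads in all 32 libraries, and a count of 0 allows up to 3 reads over all of them. No identifier with a symbol matched INHBA, INHBB, NOG or GREM1, so the inhibin and activin beta A and beta B subunits were not analysed here. The symbol rule also takes in genes that are not ligands, receptors or SMADs of the pathway in the strict sense, such as TGFBI, an extracellular matrix protein, and BMP2K, a kinase named for its induction by a BMP.

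Ligands of this family are secreted dimers that bind pairs of type I and type II receptor kinases, which phosphorylate receptor SMAD proteins. SMAD2 and SMAD3 carry the signal of TGF-beta and activin, SMAD1, SMAD5 and SMAD9 that of BMPs, and SMAD4 is the shared partner. SMAD6, SMAD7 and the SMURF ubiquitin ligases restrain it. In the testis, Sertoli cells secrete inhibin, a dimer of the INHA alpha subunit and a beta subunit that lowers pituitary FSH, and Leydig cells, which make androstenone along with testosterone, also express INHA. AMHR2 is the receptor of anti-Müllerian hormone.

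The animals were crossbred males of a Duroc by Landrace/Yorkshire cross, slaughtered near 100 kg, and whole testis was sequenced. The labels place 31 of the 32 pigs in a High or a Low group for androstenone and skatole (AS), the compounds of boar taint, and each pig had a control diet or one with 15% chicory for 3 days before slaughter. Control diet was given to 10 pigs of the High and 7 of the Low AS group, and chicory to 7 of each; the last pig, which had no AS group, entered no comparison. Androstenone ran from 0.67 to 7.77 mg/kg in the High AS pigs and from 0 to 1.07 mg/kg in the Low AS pigs, so the groups overlapped. Skatole was not given for most pigs, and where it was given the groups overlapped too. A breeding value of the sire for androstenone was recorded for each pig and entered no fit. The pigs are separate animals, but they share 14 sows, and offspring of 7 sows fell in both AS groups.

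Counts in genes ran from 1855174 to 20349500 per library, with a median of 4061083. The libraries came in a set of 8 with numbered names, at 10585625 to 20349500 counts, and a set of 24 without, at 1855174 to 5993637. The numbered set holds 6 of the 17 High AS and 2 of the 14 Low AS pigs. High AS control replicates 2 and 3 and High AS chicory replicates 2 and 5, all numbered, were labelled lane 7 and all other libraries lane 6. Their androstenone was 4.74, 3.89, 3.75 and 1.12 mg/kg. Lane 7 thus held High AS pigs alone, no fit had a lane term, and the effect of lane was not tested. The plain libraries were all of lane 6. 3794 of 13025 genes (29.1%) differed between the sets (edgeR quasi-likelihood test with Benjamini-Hochberg adjustment), among them 7 of the 40 tested members, so the comparisons below carry a term for it; the alternatives that drop the term or take 1 set alone are in the closing section. One library stood apart: Low AS chicory replicate 1 had the fewest counts, 1855174, the lowest spermatid marker level, 7.63 against 9.22 log2 CPM in the next pig, and the highest spermatogonia marker level, 4.93. In the 4 main comparisons, the estimates of members named by rule that moved by more than 0.1 on the log2 scale without it are given both ways. GDF10, named after its value was seen, and the genes of the other pathway lists are given with all 31 pigs only. In bulk tissue, fewer cells of a type and less RNA per cell cannot be told apart.

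Most members were read in every library, at low to moderate levels in CPM, the counts scaled to library size by the trimmed mean of M values. Of the 49 members, 40 passed the low-count filter, and ACVR1C, ACVR2B, BMP3, FST, FSTL4, GDF2, INHBE, LTBP2 and SMAD6 did not. The 6 members with the highest mean CPM were SMAD4, INHA, SMURF1, BMPR2, BMP2K and SMAD1. CPM is not divided by transcript length, for which no table was given, so this order is one of reads and not of transcripts. SMAD4 lay at 63.0 ± 11.4 CPM (SD, n = 31), from 47.5 to 98.1. INHA lay at 62.9 ± 37.0 CPM, from 25.5 to 220, with a median of 51.5. SMURF1 lay at 44.8 ± 13.0 CPM and BMPR2, the type II BMP receptor, at 29.4 ± 17.0 CPM. BMP2K lay at 23.7 ± 6.74 CPM and SMAD1 at 23.5 ± 7.12 CPM. The steadiest of these was SMAD4, and SMAD4, INHA and BMPR2 each had their highest value in Low AS chicory replicate 1. The order differs between the library sets: in the 23 plain libraries INHA, at 67.4 CPM, lay above SMAD4, at 61.8 CPM, and BMP1 (25.0 CPM) and SMAD2 (22.7 CPM) lay above SMAD1 (20.3 CPM), while in the 8 numbered libraries SMAD1 lay at 32.8 and BMP1 at 15.8 CPM.

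**Figure D1:**
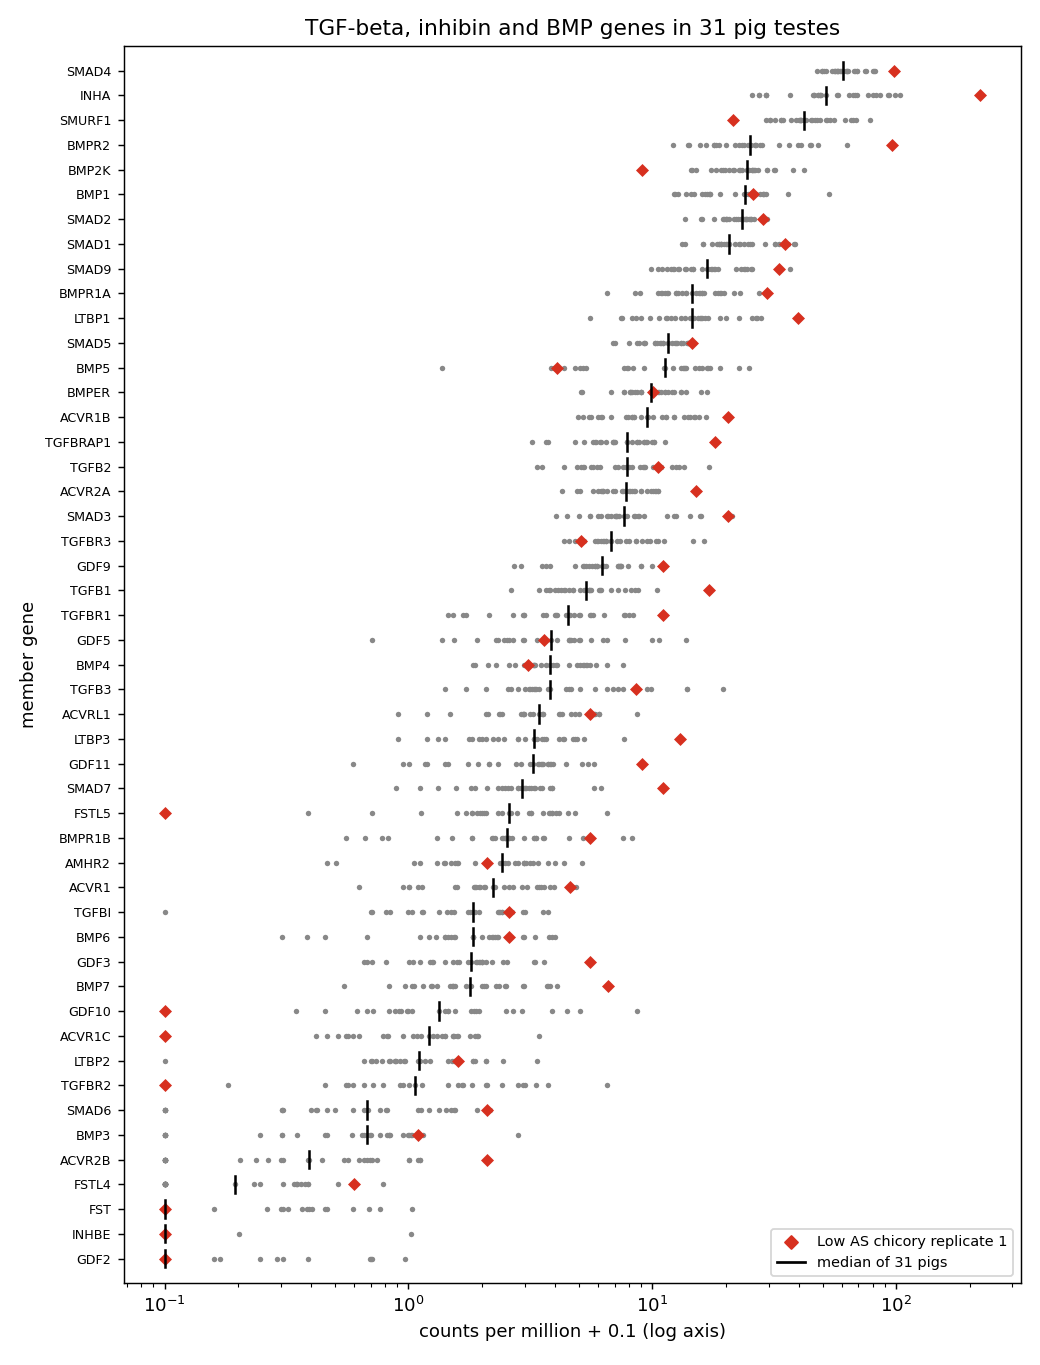
Each grey point is 1 of 31 pigs, on a log axis of CPM plus 0.1, with genes in the order of their median. The red diamond, Low AS chicory replicate 1, is the highest pig for INHA at 220 CPM and for BMPR2 at 96.1 CPM.

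Follistatin (FST), which binds and blocks activin, had 46 reads in all, in 16 of 32 libraries, so no statement on its regulation is possible at this depth. INHBE had 10 reads, in 2 libraries, and GDF2 had 17. The receptors TGFBR2 and ACVR1 were read at 1.42 ± 1.39 CPM and 2.37 ± 1.17 CPM over the 31 pigs.

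Low AS chicory replicate 1 was the highest of the 31 pigs for 16 of the 40 members (40%) and the lowest for 5 (12.5%). Over all 13025 genes tested it was the highest for 23.9% and the lowest for 26.3%. In these counts a tie, as between pigs with 0 reads, went to the first pig in sample order. TGFB1, ACVR2A, BMPR1A, GDF11, LTBP1, LTBP3 and SMAD7 were among the members highest in it, while TGFBR2, GDF10 and FSTL5 had 0 reads in it. TGFBR2 was read in 28 and GDF10 in 29 of the 32 libraries, so for both the lowest place was shared with other pigs.

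The first question was whether the genes differed between the High and Low AS groups. None of the 40 members did, and none of the 13025 genes did either (0%). The edgeR quasi-likelihood test, with diet and library set as terms, gave the members a smallest Benjamini-Hochberg adjusted p of 0.988. At unadjusted p under 0.05 there were 0 members and 300 genes (2.3%). DESeq2 and limma voom also called 0 members, with 0 at unadjusted p under 0.05 in each. Of the members, 18 had a higher and 22 a lower estimate in High AS pigs. Their median log2 change was -0.03, beside 0.01 over all genes tested. Without Low AS chicory replicate 1, 24 of 39 members had a higher and 15 a lower estimate, with a median of 0.02 beside 0.01. With limma voom and all pigs, 24 were higher and 16 lower.

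INHA ranged from 25.5 to 98.5 CPM with a median of 48.5 in the High AS pigs, and from 27.3 to 220 with a median of 65.1 in the Low AS pigs. The groups overlapped, and 2 Low AS pigs, at 103 and 220 CPM, lay above every High AS pig. The estimate was -0.32 (SE 0.25, 95% interval -0.82 to 0.18) on the log2 scale, and -0.13 (SE 0.21) without Low AS chicory replicate 1. AMHR2 had a median of 2.45 CPM, from 1.02 to 5.03, in High AS pigs and of 1.88 CPM, from 0.363 to 3.15, in Low AS pigs. Its estimate was 0.37 (SE 0.26, interval -0.15 to 0.90).

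Of the ligands, TGFB3 had the smallest p of the members. It ranged from 1.98 to 19.4 CPM (median 4.47) in High AS pigs and from 1.31 to 9.45 CPM (median 3.21) in Low AS pigs. The estimate was 0.56 (SE 0.34, interval -0.12 to 1.24, unadjusted p = 0.103), and 0.66 (SE 0.33, unadjusted p = 0.0532) without Low AS chicory replicate 1. TGFB1 was estimated at 0.06 (SE 0.21) and TGFB2 at -0.10 (SE 0.21). BMP5 was estimated at 0.35 (SE 0.29) and GDF9, a ligand best known from oocytes, at -0.14 (SE 0.18). The groups of all 5 overlapped.

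Among the receptors, TGFBR1, TGFBR2 and TGFBR3 (betaglycan, an inhibin co-receptor) had estimates of 0.05 (SE 0.25), 0.57 (SE 0.52) and 0.07 (SE 0.19). The type I receptor ACVR1 was estimated at -0.18 (SE 0.27) and the type II receptor ACVR2A at -0.14 (SE 0.15). BMPR1A, BMPR1B and BMPR2 were estimated at -0.06 (SE 0.18), -0.15 (SE 0.31) and -0.04 (SE 0.23). Of the SMADs, SMAD2 had the smallest p (0.142), with 0.15 (SE 0.10). SMAD1, SMAD3, SMAD4, SMAD5, SMAD7 and SMAD9 lay between -0.08 and 0.05. With Low AS chicory replicate 1 left out, BMPR2 was at 0.19, TGFB1 at 0.20, TGFBR1 at 0.20, SMAD3 at 0.14 and SMAD7 at 0.17. For 37 of the 40 members the 95% interval excluded a change of 2-fold or more in either direction, and 33 estimates lay within 1 SE of 0.

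**Figure D2:**
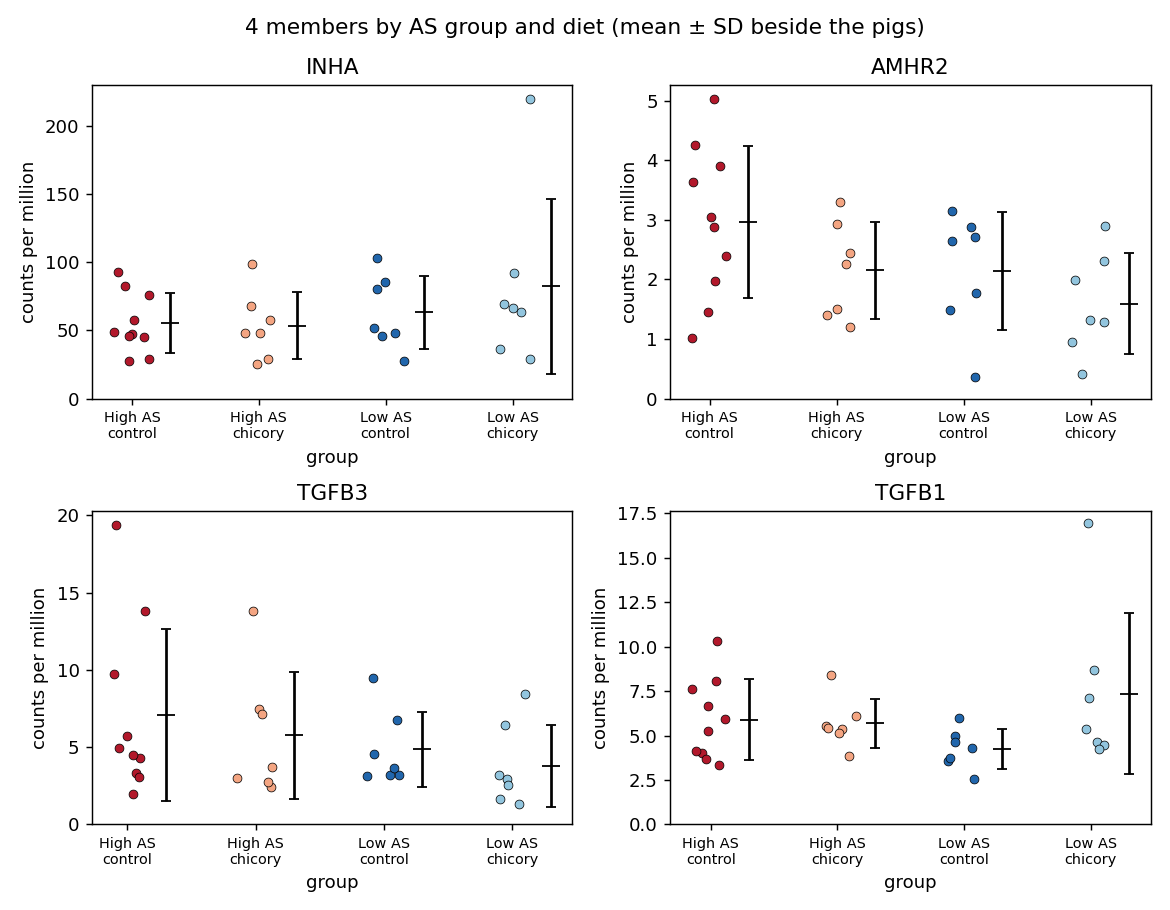
INHA, AMHR2, TGFB3 and TGFB1 in CPM by AS group and diet, 1 point per pig, with the mean and SD beside them (n = 10, 7, 7 and 7). The pigs of the 4 groups overlap in each panel, and the highest INHA value, 220, and the highest TGFB1 value, 16.9, are the same Low AS chicory pig.

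The second comparison took the measured androstenone in place of the groups, as the log2 change for each doubling of the concentration plus 0.5 mg/kg. No member passed the threshold: the smallest adjusted p was 0.852, while 3 of 13199 genes (0.0227%) passed. At unadjusted p under 0.05 there were 2 members, BMP4 and AMHR2, both with a positive slope, and 668 genes (5.06%), of which 294 had a positive slope (2.23% of all). DESeq2 and limma voom each gave 0 members past the threshold and 1 at unadjusted p under 0.05. A higher slope was estimated for 17 members and a lower one for 23, with a median of -0.02 beside -0.01 over all genes tested.

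BMP4, a BMP ligand, ranged from 1.73 to 7.46 CPM with a median of 3.71 over all pigs, and its slope was 0.19 (SE 0.08, interval 0.03 to 0.35, unadjusted p = 0.0424). This interval is narrower than the p implies. AMHR2, from 0.363 to 5.03 CPM, had a slope of 0.27 (SE 0.13, interval 0.01 to 0.53, unadjusted p = 0.0431), and of 0.16 (SE 0.15) without the pigs at 0 mg/kg. With the sow as a fixed block, it was -0.13 (SE 0.24). Neither BMP4 nor AMHR2 had unadjusted p under 0.05 with the index set term, carcass weight or the sow as a fixed block. The same held on ranks of the concentration and without the pigs at 0 mg/kg. INHA had a slope of 0.01 (SE 0.13, interval -0.24 to 0.27).

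Of the other ligands, TGFB1, TGFB2 and TGFB3 had slopes of 0.04 (SE 0.10), -0.19 (SE 0.09) and 0.25 (SE 0.17), and BMP5 had 0.20 (SE 0.15). BMPR1B, a type I BMP receptor, had the lowest slope, -0.27 (SE 0.14). ACVR1 was at -0.24 (SE 0.13) and BMPR1A at -0.15 (SE 0.09). The slopes of BMPR2, ACVR2A, TGFBR1, TGFBR2 and TGFBR3 were -0.11 (SE 0.11), -0.01 (SE 0.07), -0.05 (SE 0.12), 0.02 (SE 0.27) and 0.00 (SE 0.09). Those of SMAD1, SMAD2, SMAD3, SMAD4, SMAD5, SMAD7 and SMAD9 lay between -0.08 and 0.05. The 95% interval of all 40 members excluded 2-fold per doubling. Androstenone ran up to 7.77 mg/kg, and the pigs span several doublings of the fitted term. Over that range this limit allows far more than a 2-fold change. The count is therefore not comparable with those for AS group and diet. The interval of TGFB3, for example, was -0.10 to 0.59 for each doubling.

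The third comparison was chicory against control diet. Again no member passed: the smallest adjusted p was 1, and 1 of 13025 genes (0.00768%) passed. At unadjusted p under 0.05 there were 0 members and 114 genes (0.875%). SMAD3 was 1 such member, at -0.44 (SE 0.19, unadjusted p = 0.0277, adjusted p = 1), when Low AS chicory replicate 1 was left out. DESeq2 had 0 such members and limma voom 1, with 0 past the threshold in either. On chicory, 21 members were estimated higher and 19 lower, with a median of 0.01, as over all genes tested (0.01). Without Low AS chicory replicate 1, 14 of 39 members were higher and 25 lower, with a median of -0.05 beside -0.004.

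TGFBR3 had the smallest p. It ranged from 4.44 to 16.2 CPM (median 7.72) on control diet and from 4.25 to 10.3 CPM (median 6.29) on chicory, and was estimated at -0.32 (SE 0.18, interval -0.69 to 0.05). AMHR2 was estimated at -0.43 (SE 0.25), with medians of 2.71 CPM on control diet and 1.75 CPM on chicory. BMP1, a protease that matures ligands and matrix, was estimated at -0.24 (SE 0.15) and SMAD3 at -0.30 (SE 0.22). The positive estimates of smallest p were GDF11 at 0.45 (SE 0.28), ACVR2A at 0.22 (SE 0.14), LTBP3, which holds latent TGF-beta in the matrix, at 0.42 (SE 0.28) and BMP6 at 0.33 (SE 0.24). The highest estimate, named after its value was seen, was that of GDF10, at 0.49 (SE 0.44). Low AS chicory replicate 1 was the highest pig for LTBP3, at 12.9 CPM, and without it LTBP3 was at 0.18 (SE 0.23) and GDF11 at 0.33 (SE 0.27). INHA, with medians of 49.0 CPM on control diet and 60.6 CPM on chicory, was estimated at 0.12 (SE 0.24), and at -0.079 without that pig. The diets overlapped for each of these members.

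TGFB1, TGFB2 and TGFB3 were estimated at 0.28 (SE 0.21), -0.11 (SE 0.21) and -0.33 (SE 0.31) for chicory. The receptors TGFBR1, TGFBR2, ACVR1, BMPR1A, BMPR1B and BMPR2 lay between -0.18 and 0.26. SMAD1, SMAD2, SMAD4, SMAD5, SMAD7 and SMAD9 lay between -0.01 and 0.24. Leaving out Low AS chicory replicate 1 took BMPR2 from 0.26 to 0.018, SMAD7 from 0.24 to 0.022, TGFB1 from 0.28 to 0.14 and TGFBR1 from 0.12 to -0.028. For 37 of 40 members the interval excluded a change of 2-fold or more.

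**Figure D3:**
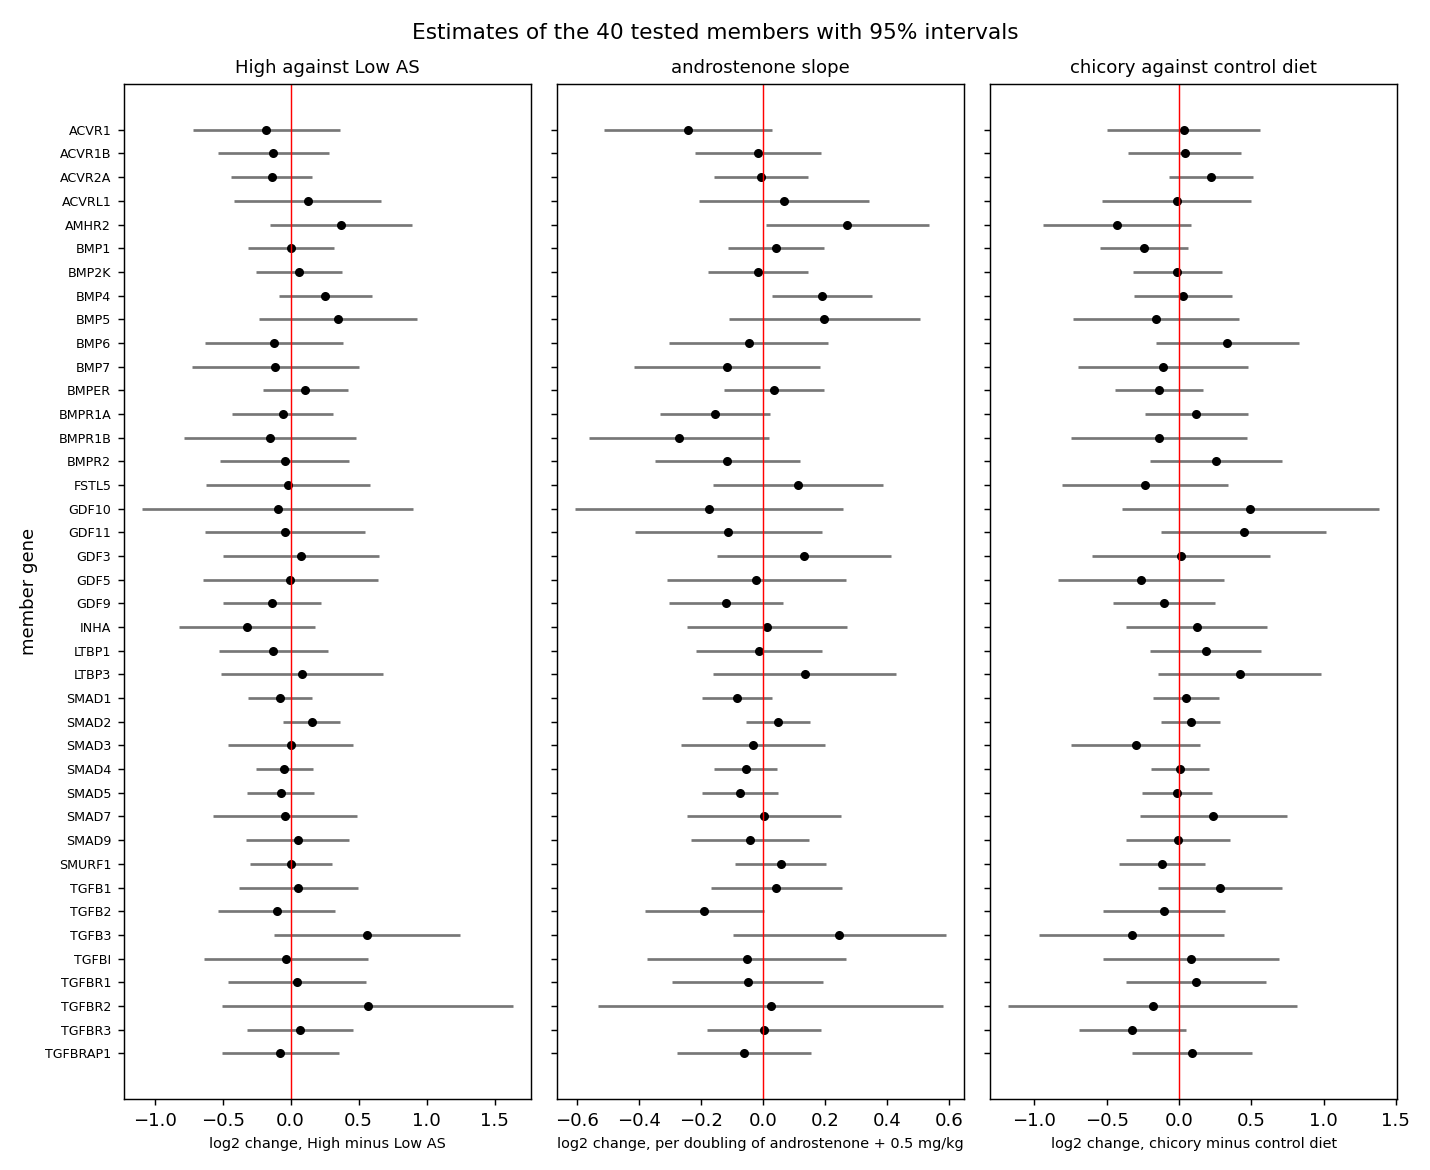
Log2 change of each of the 40 tested members (points) with its 95% interval (bars), for High minus Low AS, per doubling of androstenone plus 0.5 mg/kg, and for chicory minus control diet. The bars of BMP4 and AMHR2 in the middle panel do not reach 0, and neither gene passed adjustment over all genes.

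The AS difference was then compared between the diets, as the High minus Low AS change on chicory less that on control diet. No member passed, nor did any of the 13025 genes (0%), and the smallest adjusted p of the members was 0.951. At unadjusted p under 0.05 there were 2 members, ACVR1 and TGFB1, both negative, and 473 genes (3.63%), with 2.46% of all genes negative. DESeq2 had 2 such members and limma voom 0. The estimate was negative for 31 members and positive for 9, with a median of -0.22 beside -0.02 over all genes tested. Without Low AS chicory replicate 1 it was negative for 24 and positive for 15 of 39 members, with a median of -0.09 beside -0.01. In the same contrast 11 of 12 Sertoli markers had a negative estimate (median -0.78), 5 of 6 endothelial markers did (median -0.72), and 19 of 19 spermatid markers had a positive one (median 0.28). Without that pig it was 10 of 12 (median -0.72), 5 of 6 (median -0.68) and 17 of 19 (median 0.10). Their part in the result was not tested.

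ACVR1 on control diet had a median of 2.57 CPM (0.849 to 3.86) in High AS pigs and 1.80 CPM (1.45 to 2.58) in Low AS pigs. On chicory it had 1.85 CPM (0.905 to 2.11) in High AS pigs and 3.39 CPM (0.525 to 4.76) in Low AS pigs. On chicory 6 of 7 Low AS pigs thus lay above every High AS pig, and Low AS chicory replicate 5, with 2 reads, lay below them all. Values on the High AS side rest on few reads too. High AS chicory replicates 7 and 3 were at 0.905 and 1.867 CPM, in libraries of 2544934 and 2268778 counts. The separation of the groups on chicory is therefore uncertain. The interaction was -1.15 (SE 0.51, unadjusted p = 0.0318), and -1.08 (SE 0.52, unadjusted p = 0.0448) without Low AS chicory replicate 1.

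TGFB1 had medians of 5.59 and 4.30 CPM in High and Low AS pigs on control diet, and of 5.43 and 5.39 CPM on chicory. Its interaction was -0.90 (SE 0.41, unadjusted p = 0.0351), and -0.60 (SE 0.36, unadjusted p = 0.104) without that pig. ACVR2A was estimated at -0.50 (SE 0.29) and SMAD9 at -0.60 (SE 0.36). The 4 positive estimates of smallest p were TGFBR3 at 0.39 (SE 0.37), FSTL5 at 0.48 (SE 0.59), TGFBR1 at 0.31 (SE 0.50) and TGFBI at 0.30 (SE 0.62). INHA was estimated at -0.33 (SE 0.50), and at 0.13 (SE 0.44) without that pig. AMHR2 was estimated at -0.17 (SE 0.55), TGFB2 at -0.56 (SE 0.44) and TGFB3 at 0.01 (SE 0.62). TGFBR2, BMPR1A, BMPR1B and BMPR2 lay between -1.37 and -0.44, and SMAD1, SMAD2, SMAD3, SMAD4, SMAD5 and SMAD7 between -0.65 and -0.01. Of 22 members named by rule, 15 moved by more than 0.1 when Low AS chicory replicate 1 was left out. BMPR2 went from -0.66 to -0.13, BMPR1A from -0.44 to -0.29, BMPR1B from -0.92 to -0.79 and TGFBR2 from -1.37 to -1.53. TGFBR1 was then at 0.70, ACVR2A at -0.37, TGFB3 at 0.27 and FSTL5 at 0.31. Among the SMADs, SMAD3 went from -0.65 to -0.34 and SMAD7 from -0.46 to 0.046, while SMAD9 was at -0.42, SMAD1 at -0.087 and SMAD4 at -0.022. Only 10 of the 40 intervals excluded a 2-fold difference.

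**Figure D4:**
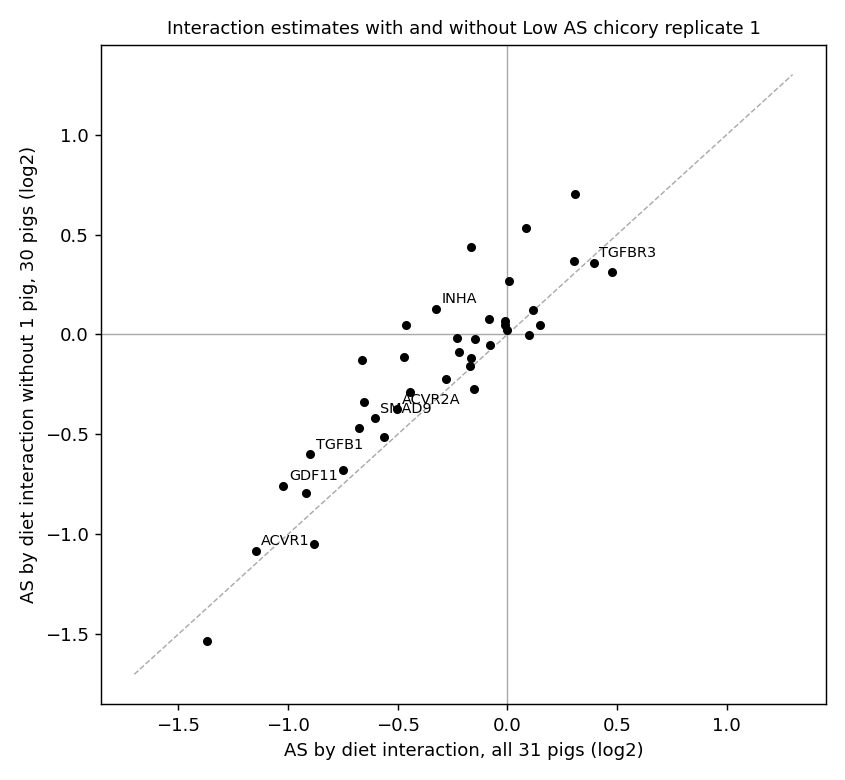
Interaction estimates (log2) of the members with all 31 pigs on the horizontal axis and without Low AS chicory replicate 1 on the vertical axis, with the line of equal values dashed. Most points lie above the dashed line, TGFB1 moves from -0.90 to -0.60 and INHA crosses 0.

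Within the Low AS pigs, chicory was compared with control diet. TGFB1, ACVR2A and GDF11, a ligand of the activin branch, had unadjusted p under 0.05, so 3 of 40 members were there, all higher on chicory, beside 2.65% of all genes in either direction and 2.05% higher, and none passed adjustment (smallest adjusted p 0.997, 0% of all genes). Their estimates were 0.79 (SE 0.31), 0.50 (SE 0.21) and 1.02 (SE 0.44). TGFB1 ran from 2.54 to 5.99 CPM on control diet and from 4.25 to 16.9 CPM on chicory, and the groups overlapped. Without Low AS chicory replicate 1 the 3 estimates were 0.49, 0.37 and 0.77, with unadjusted p of 0.08, 0.0767 and 0.0867. Within the chicory pigs, ACVR1 was the 1 member at unadjusted p under 0.05 between AS groups, at -0.85 (SE 0.39), beside 6.22% of all genes and 4.56% in that direction. Without that pig it was at -0.78 (SE 0.40, unadjusted p = 0.0586), and 0 members had unadjusted p under 0.05. On control diet, and for diet within the High AS pigs, there were 0 such members in edgeR, beside 1.27% and 1.44% of all genes. Without that pig, SMAD3 was the 1 such member for diet within the High AS pigs, at -0.59 (SE 0.26, unadjusted p = 0.0317). DESeq2 and limma voom were not run for the contrasts within 1 diet or 1 AS group.

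Other genes of the pathway were taken from 4 lists: further ligands and traps, co-receptors, SMAD partners and transcriptional targets. Of 86 listed genes, 63 had an identifier and 50 were tested, and 0 passed the threshold in any of the 4 comparisons in edgeR, DESeq2 or limma voom. For High against Low AS, 3 of the 50 had unadjusted p under 0.05, all with a lower estimate in High AS pigs, beside 2.3% of all genes in either direction and 1.56% lower. They were ID2, a BMP target that blocks helix-loop-helix factors, at -0.78 (SE 0.27), PPP1R15A, a phosphatase subunit, at -0.32 (SE 0.14) and the SMAD corepressor TGIF1 at -0.34 (SE 0.16). DESeq2 had 3 such genes and limma voom 1. For the androstenone slope and for diet edgeR had 0, beside 5.06% and 0.875% of all genes, DESeq2 had 2 and 1, and limma voom 1 and 0. The smallest p for the slope belonged to TGIF1 at -0.16 (SE 0.08), STRAP at -0.11 (SE 0.05) and DAB2 at -0.18 (SE 0.09). For diet it belonged to HEY1, FURIN, which cleaves ligand precursors, and ARRB2, at 0.52 (SE 0.26), -0.40 (SE 0.26) and 0.16 (SE 0.11). For the interaction it belonged to the co-receptor NEO1 at -0.70 (SE 0.27), the 1 gene at unadjusted p under 0.05 (2 in DESeq2 and 2 in limma voom, beside 3.63% of all genes in edgeR), LRRC32 at -1.41 (SE 0.72) and the endothelial co-receptor ENG at -0.59 (SE 0.32).

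INHA is made by Sertoli and by Leydig cells, so its level in each pig was set beside the mean log2 CPM of 11 Leydig markers and of 12 Sertoli markers. This was done in the 23 plain libraries, since the library sets differ. The permutations treated the pigs as exchangeable, with no term for sow, AS group or diet. Some of these pigs share a sow, so the permutation p may be too small. INHA rose with the Leydig marker level (Pearson r = 0.70, Spearman rho = 0.66, permutation p adjusted over 4 relations 0.00076 and 0.0032). When the 2 pigs with the most extreme Leydig levels were dropped r was 0.66, and without Low AS chicory replicate 1 it was 0.73. In the 8 numbered libraries r was 0.24 (rho 0.21, exact permutation p = 0.558). With the Sertoli level, r was 0.45 and rho 0.48, with adjusted permutation p of 0.059 and 0.046, so the 2 measures fell on different sides of the threshold, and without Low AS chicory replicate 1 r was 0.36. In the numbered libraries r with the Sertoli level was 0.52 (exact permutation p = 0.194). AMHR2 had r of 0.29 with the Leydig and 0.04 with the Sertoli level, and neither passed. In the 23 libraries the Leydig level ran from 4.52 to 6.84 and the Sertoli level from 3.18 to 4.68 log2 CPM.

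The same relation was then computed for all 40 members and 9 marker lists, 360 relations in all, a set chosen after the data were seen. In the plain libraries 20 passed a permutation p of r adjusted over the 360, 14 positive and 6 negative, and all 20 also passed in rho. These permutations too had no term for sow, AS group or diet. With the Leydig level these were BMP1 (r = 0.75), TGFB3 (0.74), INHA and LTBP3 (0.62). With the Sertoli level they were the type I receptors ACVR1 (0.76), BMPR1B (0.67) and BMPR1A (0.60), together with SMAD9 (0.67) and the receptor-associated protein TGFBRAP1 (0.66). With the spermatid level they were negative, for SMAD3 (-0.68), BMPR1A (-0.67), SMAD9 (-0.64) and TGFBRAP1 (-0.62). With the peritubular and smooth muscle level they were LTBP1 (0.71) and INHA (0.59), and with the endothelial level TGFBR2 (0.62). SMURF1 was negative with spermatogonia (-0.73) and with macrophages (-0.61), where BMP1 (0.66) and INHA (0.62) were positive, on 3 macrophage markers.

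Leaving out the 2 pigs farthest in each marker level kept 6 of the 20 past the threshold and the sign of all 20. The 6 were INHA and TGFB3 with Leydig, ACVR1 and TGFBRAP1 with Sertoli, LTBP1 with peritubular and SMURF1 with macrophage markers. The other 14 no longer passed with 21 pigs, at an absolute r of 0.445 to 0.631. Without Low AS chicory replicate 1, 11 of the 20 passed. None of the 4 spermatid relations did: r was then -0.61 for BMPR1A, -0.54 for SMAD3, -0.53 for SMAD9 and -0.48 for TGFBRAP1. The other 5 that no longer passed were LTBP3 with Leydig (0.61), BMPR1A with Sertoli (0.55), INHA with peritubular (0.52) and macrophage markers (0.59) and SMURF1 with macrophage markers (-0.56). In the 8 numbered libraries 0 passed and 15 of 20 had the same sign. There r was 0.81 for TGFB3 and 0.79 for BMP1 with Leydig, 0.71 for ACVR1 with Sertoli and -0.68 for BMPR1A with spermatid markers, but -0.15 for LTBP1 with peritubular markers. These are relations across pigs between levels scaled within the same library, and the cell that makes a transcript was not measured.

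**Figure D5:**
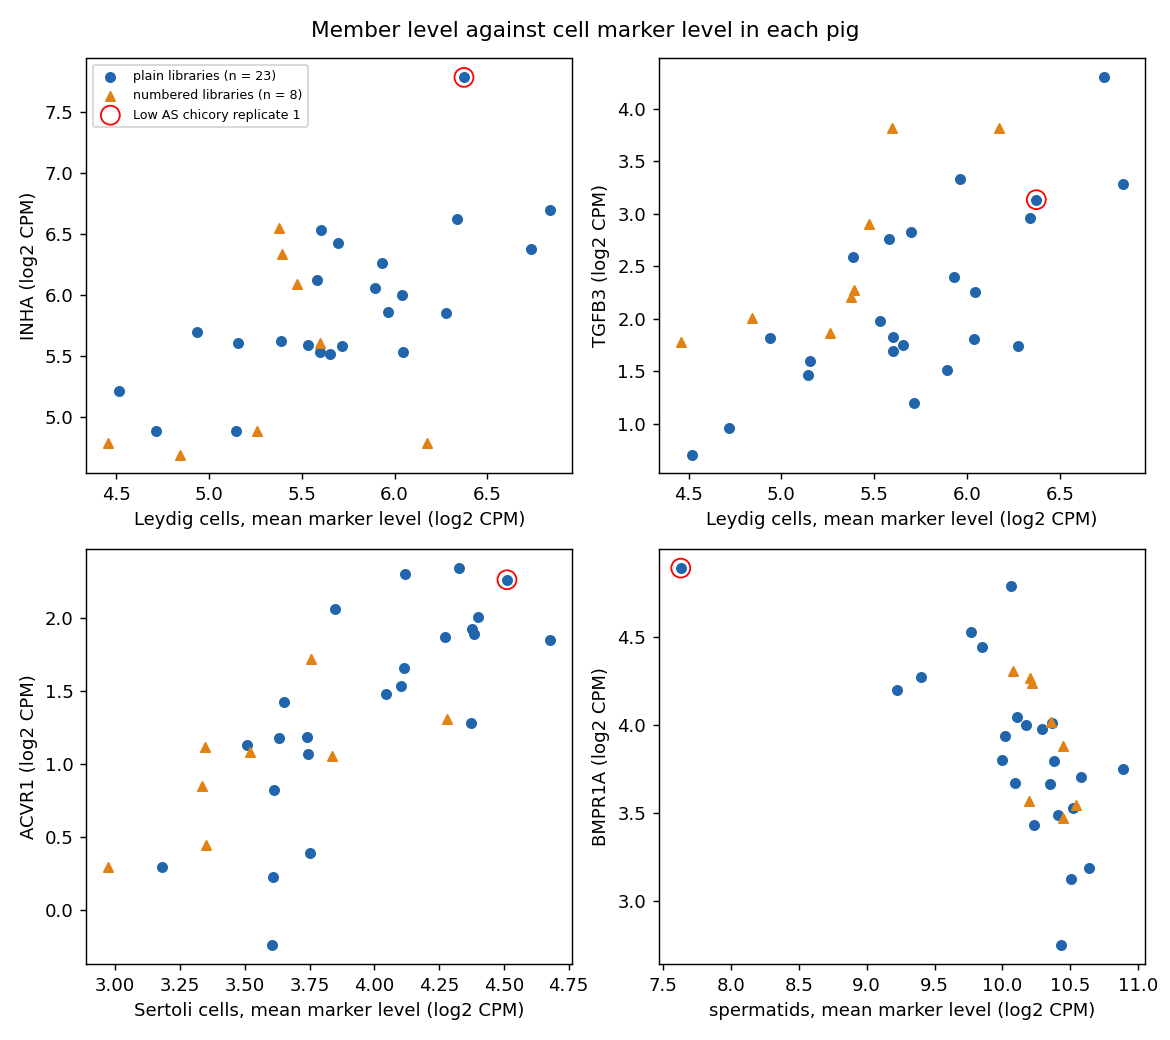
Log2 CPM of INHA, TGFB3, ACVR1 and BMPR1A against the mean marker level of Leydig cells, Leydig cells, Sertoli cells and spermatids, with plain libraries (n = 23) as circles, numbered libraries (n = 8) as triangles and Low AS chicory replicate 1 ringed. In the plain libraries r is 0.70, 0.74, 0.76 and -0.67, and in the last panel the ringed pig lies far to the left of the others.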

How the data were processed

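RNA of 32 pig testes was sequenced with a stranded TruSeq mRNA kit, per the labels' protocols. The deposited values are raw counts per Ensembl gene, made by the authors with HTSeq 0.6.0 after STAR, with Trimmomatic 0.33, cutadapt 1.8.1 and SAMtools 1.3.1, per the submitters' processing notes; the genome build, annotation release and strand setting are not given in the sources used here. The 5 closing lines of each table, reads given to no gene, were left out; reads with no feature were 20.6% to 39.6%. Overlapping and near-identical genes may share reads.

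Counts were tested with edgeR 4.0.16 (R 4.3.3; filterByExpr, TMM, quasi-likelihood F test, Benjamini-Hochberg 0.05 over all genes), with AS group or log2(androstenone + 0.5 mg/kg), diet and library set as terms. In simulated counts of 13025 genes, the fits recovered 163 of 200 genes changed 2-fold for AS and 174 of 200 for diet. For androstenone they recovered 200 of 200, but there the 2-fold step applied to every unit of its log2 term. That count is therefore not comparable with those for AS and diet. The interaction was not simulated. The changed genes were drawn at random from all genes, with no difference between library sets and no outlying pig. With 200 genes changed, the adjusted threshold is also easier to pass than in fits that call few genes. Many members have few reads, so none of these counts gives the power for the members. DESeq2 1.42.0, limma 3.58.1, other filters, sow, weight and index terms and leaving out pigs were alternatives. Marker levels are mean log2 CPM with a prior count of 2, related by 100000 permutations (exact for 8 pigs). Intervals are 95%. No pair of libraries of 1 group agreed within sampling noise.

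Members and lists were chosen with earlier results of these data known. Named in each of the 4 comparisons are INHA, AMHR2, TGFB1 to TGFB3, TGFBR1 to TGFBR3, ACVR1, ACVR2A, BMPR1A, BMPR1B, BMPR2 and the SMADs that passed the filter, with the 4 members of smallest p in each direction. Of the pathway lists the 3 genes of smallest p are named. In the contrasts within 1 diet or AS group, members at unadjusted p under 0.05 are named. Relations planned for INHBA, INHBB and FST, and levels per length, could not be computed. The relations of all members with 9 marker lists were added after the data were seen. The count with 9 lists was computed first; dropping the epididymis list, which has 1 marker past the filter, and asking for r and rho together were tried after it, and all counts are given in the closing section.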

Additional observations from a re-analysis of the deposited data

Results flagged for a closer look

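In groups of 4 to 10 pigs, the highest or lowest pig was set against the gap to the nearest other pig by Dixon's 95% limit, which chance passes in about 1 group in 20. Of 160 pairs of a member and a group, 10 passed, a share near that chance rate. The share over all genes is not given here. Low AS chicory replicate 1 was far above its group for BMPR2 at 96.11 CPM and SMAD3 at 20.42 CPM, and far below it for BMP2K at 8.964 CPM. The same pig had a spermatogonia marker level of 4.925 and a spermatid marker level of 7.629 log2 CPM, each apart from its group. In the same group, ACVR1 was low in replicate 5 at 0.5245 CPM, which is 2 reads. BMPER, a BMP binding protein, was low in replicate 7 at 5.072 CPM.

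In the Low AS control group, replicate 4 was low for ACVRL1, an endothelial type I receptor, at 1.088 CPM and for AMHR2 at 0.3628 CPM. These are 3 reads and 1 read, so both values lie near the floor of the counts. Replicate 6 was low for SMAD2 at 13.54 CPM. In the High AS chicory group, replicate 4 was low for GDF5 at 1.811 CPM, and replicate 3 for GDF9 at 2.8 CPM and for the endothelium marker level at 1.86 log2 CPM.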

How the results depend on the processing

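No member passed the threshold in any alternative or in any fit that left out 1 pig. Depth limits the members of few counts, FST and INHBE among them. The count of genes called for the androstenone slope went from 3 to 9 with no low-count filter and 7 with DESeq2. It was 0 with no library set term, with the index set, with carcass weight, with the sow as a fixed block, on ranks, without the pigs at 0 mg/kg and in the numbered libraries alone, and 1 to 4 without 1 pig. For diet it went from 1 to 0 with the stricter filter, limma voom, no library set term, the sow as a random effect and in either library set alone, and 0 to 1 without 1 pig. For the interaction it was 1 with no low-count filter. The cause was not tested.

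Only the larger shifts of these counts are listed here. Members with a higher estimate in High AS pigs went from 18 to 10 in the plain and 28 in the numbered libraries alone. For the interaction they went from 9 to 15 with no low-count filter, 14 with limma voom, 15 with no library set term, 14 with the sow as a random effect, 15 without Low AS chicory replicate 1, 17 without it and High AS control replicate 3, and 7 to 15 without 1 pig. Of the 4 planned relations 1 passed, 0 in the numbered libraries and 2 with all pigs pooled. Of 360 relations 20 passed. The count was 0 in the numbered libraries, 55 with all pigs pooled, 13 without the 2 farthest pigs and 41 of 320 without the epididymis list. Asking for r and rho together gave 20 with 9 lists and 29 with 8. In the numbered libraries the sign of r changed for AMHR2 with Leydig (-0.105) and Sertoli markers (-0.113; -0.143 pooled), SMURF1 with spermatogonia (0.046) and macrophages (0.433), TGFBRAP1 with spermatids (0.267), and INHA (-0.123) and LTBP1 (-0.150) with peritubular markers. No paired analysis was possible because the replicate numbers follow the order of the samples and are not in the labels; the sow was used as a block instead.

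Among 1402 estimates, each of a named member in a comparison and an alternative setting, 158 changed sign.

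Of the named estimates for High against Low AS, these changed sign (log2). With carcass weight as a covariate, they were 0.077 for ACVR1, 0.17 for BMPR1A, 0.091 for BMPR1B, 0.037 for BMPR2, 0.032 for SMAD1, -0.031 for SMAD3, 0.037 for SMAD7, -0.0060 for SMAD9, -0.0018 for TGFB1 and 0.16 for TGFB2. In the numbered libraries alone, they were 0.27 for ACVR1, -0.15 for BMP5, 0.23 for BMPR1A, 0.17 for BMPR2, 0.10 for SMAD4 and 0.30 for SMAD7. With the sow as a fixed block, they were -0.11 for AMHR2, -0.13 for SMAD3 and -0.048 for SMAD9. With the index set as a term, they were 0.0007 for BMPR1A, 0.030 for BMPR2 and 0.0003 for SMAD7. With limma voom, they were 0.030 for BMPR1A, 0.086 for BMPR2 and 0.11 for SMAD7. With the sow as a random effect, they were 0.037 for BMPR1A, 0.080 for BMPR2 and 0.083 for SMAD7. Without Low AS chicory replicate 1, they were 0.013 for BMPR1A, 0.19 for BMPR2, 0.0092 for SMAD4 and 0.17 for SMAD7. Without that pig and High AS control replicate 3, they were 0.010 for BMPR1A, 0.18 for BMPR2, 0.013 for SMAD4 and 0.14 for SMAD7. With no library set term, they were 0.13 for BMPR2, 0.087 for SMAD1 and 0.12 for SMAD7. With DESeq2, it was -0.0057 for SMAD3. With DESeq2 size factors in edgeR, it was -0.0011 for SMAD3. With no low-count filter, it was -0.0044 for SMAD3. In the plain libraries alone, they were -0.074 for SMAD3, -0.11 for SMAD9, -0.15 for TGFBR1 and -0.11 for TGFBR3. Leaving out each pig in turn gave -0.12 to 0.013 for BMPR1A, -0.31 to 0.056 for BMPR1B, -0.14 to 0.19 for BMPR2, -0.14 to 0.14 for SMAD3, -0.10 to 0.0092 for SMAD4 and -0.12 to 0.17 for SMAD7. The same fits gave -0.080 to 0.14 for SMAD9, -0.020 to 0.20 for TGFBR1 and -0.021 to 0.16 for TGFBR3.

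Of the named estimates for the androstenone slope, these changed sign (log2). With carcass weight as a covariate, they were 0.086 for ACVR2A, 0.014 for TGFBR1, -0.031 for TGFBR2 and -0.064 for TGFBR3. With the index set as a term, they were 0.021 for ACVR2A, 0.028 for SMAD3, 0.017 for SMAD9, -0.024 for TGFB1, 0.0068 for TGFBR1 and -0.014 for TGFBR3. With no library set term, they were 0.023 for ACVR2A, -0.030 for INHA, 0.0076 for SMAD1, 0.014 for SMAD3, 0.0080 for SMAD9 and 0.066 for TGFBR1. In the plain libraries alone, they were 0.0072 for ACVR2A and -0.030 for SMAD7. Dropping Low AS chicory replicate 1, they were 0.0091 for ACVR2A, 0.0051 for SMAD3 and -0.0028 for TGFBR3. Without that pig and High AS control replicate 3, it was 0.015 for ACVR2A. Fitting each sow as a block, they were -0.13 for AMHR2, 0.0051 for BMPR1B, -0.077 for INHA, -0.064 for SMAD7 and 0.026 for TGFBR1. By the rank of the concentration, they were -0.010 for INHA and -0.0033 for SMAD7. On the untransformed concentration, they were -0.0003 for INHA, -0.12 for TGFBR2 and -0.0065 for TGFBR3. Without the pigs at 0 mg/kg, they were -0.13 for INHA, -0.043 for TGFB1 and -0.058 for TGFBR2. Without the 2 highest concentrations, they were -0.0042 for INHA, 0.064 for SMAD3, -0.0086 for SMAD7, 0.036 for SMAD9, -0.017 for TGFB1 and -0.041 for TGFBR3. With limma voom, it was 0.027 for SMAD3. In the numbered libraries alone, they were 0.14 for SMAD3, 0.15 for SMAD9, -0.13 for TGFB1 and -0.089 for TGFBR3. Taking sows as random effects, it was 0.024 for SMAD3. With DESeq2, it was -0.0004 for TGFBR2. Leaving out each pig in turn gave -0.038 to 0.017 for ACVR2A, -0.050 to 0.079 for INHA, -0.075 to 0.029 for SMAD3, -0.032 to 0.050 for SMAD7, -0.072 to 0.0031 for SMAD9 and -0.10 to 0.054 for TGFBR1. The same fits gave -0.088 to 0.14 for TGFBR2 and -0.059 to 0.035 for TGFBR3.

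Of the named estimates for chicory against control diet, these changed sign (log2). With carcass weight as a covariate, it was -0.026 for ACVR1. With limma voom, they were -0.0023 for ACVR1, 0.065 for BMPR1B, -0.0063 for SMAD4 and 0.025 for SMAD9. In the numbered libraries alone, they were -0.36 for ACVR1, 0.10 for BMPR1B, -0.070 for INHA, -0.11 for SMAD1, -0.017 for SMAD4, -0.43 for TGFB1, 0.089 for TGFB2 and 0.21 for TGFB3. Less Low AS chicory replicate 1, they were -0.0089 for ACVR1, -0.079 for INHA, -0.011 for SMAD1, -0.048 for SMAD4 and -0.028 for TGFBR1. With the index set as a term, they were 0.044 for BMPR1B and 0.051 for SMAD9. Under a sow block, they were 0.46 for BMPR1B, 0.057 for SMAD3, -0.0047 for SMAD4, 0.077 for SMAD5, 0.24 for SMAD9, 0.21 for TGFB2 and 0.026 for TGFBR2. Under random sow effects, they were 0.077 for BMPR1B, -0.0037 for SMAD4, 0.0019 for SMAD5 and 0.032 for SMAD9. With no library set term, they were -0.029 for SMAD1 and -0.0008 for SMAD4. With no low-count filter, it was -0.0027 for SMAD4. In the plain libraries alone, they were -0.017 for SMAD4, 0.015 for SMAD5 and -0.056 for TGFBR1. Without that pig and High AS control replicate 3, they were -0.053 for SMAD4 and -0.019 for TGFBR1. Leaving out each pig in turn gave -0.028 to 0.11 for ACVR1, -0.22 to 0.052 for BMPR1B, -0.079 to 0.22 for INHA, -0.011 to 0.093 for SMAD1, -0.048 to 0.042 for SMAD4 and -0.044 to 0.023 for SMAD5. The same fits gave -0.092 to 0.10 for SMAD9, -0.028 to 0.23 for TGFBR1 and -0.36 to 0.20 for TGFBR2.

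Of the named estimates for the AS by diet interaction, these changed sign (log2). With limma voom, it was 0.12 for AMHR2. With no library set term, they were 0.092 for AMHR2 and 0.16 for SMAD1. Once sows were random effects, they were 0.018 for AMHR2 and 0.0068 for SMAD2. Once Low AS chicory replicate 1 was left out, they were 0.13 for INHA, 0.049 for SMAD2 and 0.046 for SMAD7. Without that pig and High AS control replicate 3, they were 0.45 for INHA, 0.022 for SMAD2 and 0.21 for SMAD7. With carcass weight as a covariate, they were 0.012 for SMAD2 and -0.16 for TGFB3. In the plain libraries alone, they were 0.014 for SMAD2 and -0.35 for TGFB3. Once sows were blocked, they were 0.10 for SMAD2, -0.44 for TGFBI and -0.22 for TGFBR1. With DESeq2, it was -0.0053 for TGFB3. Leaving out each pig in turn gave -0.39 to 0.075 for AMHR2, -0.56 to 0.13 for INHA, -0.080 to 0.064 for SMAD2, -0.64 to 0.046 for SMAD7, -0.32 to 0.35 for TGFB3 and -0.019 to 0.70 for TGFBR1.

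Of the named estimates for High against Low AS on chicory, these changed sign (log2). Leaving out Low AS chicory replicate 1, they were 0.11 for BMPR2 and 0.20 for SMAD7.

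Of the named estimates for chicory against control in Low AS pigs, these changed sign (log2). Without the pig Low AS chicory replicate 1, they were -0.15 for INHA, -0.25 for SMAD3, -0.035 for SMAD4 and -0.0057 for SMAD7.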
